A study of Mus musculus with 3 samples.

Results

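Genes for membrane carriers of amino acids and their close relatives were followed across 6 RNA samples from mouse stromal cells and T lineage cells, untreated or given phospho-ascorbate (pAsc), a stable form of vitamin C. The genes were chosen by symbol, as every probe on the array named for a gene of the solute carrier families Slc1, Slc3, Slc6, Slc7, Slc36, Slc38 and Slc43. That gave 106 probes for 59 genes, of 41174 probes with 27827 gene names in all. Of the genes, 29 had 1 probe and 30 had several, with at most 5. The families do not hold amino acid carriers alone, since Slc6 also contains the carriers of dopamine, noradrenaline, serotonin, creatine and taurine.

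The stroma was OP9-DL1, a bone marrow stromal line made to present the Notch ligand Dll1, labelled as osteoblast of strain B6-C3Hf1 and kept in continuous culture without T cells. The T lineage cells came from bone marrow progenitors of C57BL/6 mice grown on OP9-DL1 with Flt3L and IL7 for 14 or 17 days. pAsc was present at 800 µM for 24 h on the stroma, for the last 24 h of the 14-day culture and for the last 72 h of the 17-day culture. The untreated partner of each was grown for the same time with the same stroma and cytokines and no pAsc. Each treated RNA (Cy5) was hybridised with its untreated partner (Cy3) on 1 array. There were 3 arrays, no replicate and no dye swap, so no test was possible, and a gene-specific dye effect cannot be told apart from treatment. A difference was called by size, at 2-fold, among probes well above background in both channels, which are called measured here. Values are log2 intensities after background correction and within-array normalization, and a ratio is treated over untreated on that scale.

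Amino acid carriers set what a cell can take up for protein synthesis, nucleotide synthesis, redox balance and growth signalling. System L carriers such as Slc7a5 pair with the heavy chain Slc3a2 (CD98) and exchange leucine and other large neutral amino acids for glutamine, which in turn enters through Slc1a5, Slc38a1 and Slc38a2. T cells raise many of these carriers when they are activated, and the transcription factor Atf4 raises several of them when amino acids run short.

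The probes that the results below turn on are shown by their opening bases, so that the transcript piece behind each value can be identified. All 106 were 60 bases long, with a GC content from 21.7% to 55.0% and a median of 41.7%, and none was spotted more than 1 time on an array. The first 30 bases of each are given 5′ to 3′, with capitals only where a pair of probes shares bases. The positions are those of the array files on mm9, and the exon each lies in was not analysed here.
Slc1a6 (chr10:78277447-78277506, plus strand): tgaacatacatgttctgtgtgggttctctg
Slc38a4, first probe (chr15:96825482-96825541, minus strand): ctaacctggaagtatccacttgtgtagtta
Slc38a4, second probe (chr15:96843897-96846572, minus strand, across an intron): atcatcctttttataatcatgctgcttact
Slc7a8 (chr14:55341137-55341196, minus strand): tatttcttttggattttttaatgtatggcg
Slc6a13, first probe (chr6:121287597-121287656, plus strand): GGTCCACACATTGTGACGTGCCCGAATCAA
Slc6a13, second probe (chr6:121287577-121287636, plus strand): tgatgcccctattccagggtGGTCCACACA
The Slc6a13 probes share 40 bases, as do those of Slc6a18, so these pairs read nearly the same piece of transcript. The Slc38a4 probes read different pieces and gave different values.

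In stroma 49 of the 106 probes, for 30 genes, were measured. In T cells 50 probes for 33 genes were measured on the 24 h array and 52 probes for 33 genes on the 72 h array. A set of 25 genes was measured on all 3 arrays, and 38 genes on at least 1. Shared by stroma and T cells were Slc1a4, Slc1a5 and Slc1a6; Slc3a2; Slc6a6, Slc6a8, Slc6a9 and Slc6a16; Slc7a1, Slc7a2, Slc7a3, Slc7a5, Slc7a6, Slc7a7 and Slc7a8; Slc36a1; Slc38a1, Slc38a2, Slc38a4, Slc38a7, Slc38a9 and Slc38a10; and all 3 Slc43 genes. Measured in T cells and not in stroma were 8 genes, Slc3a1, Slc6a12, Slc6a13, Slc6a17, Slc6a19, Slc7a15, Slc36a3 and Slc38a5. Of these only Slc6a13 reached a log2 level above 8 in any channel. Slc3a1 was above background in untreated stroma, at 6.61, and Slc6a13, Slc6a17, Slc7a15 and Slc36a3 were in treated stroma. Slc6a12 and Slc6a17 were measured at 24 h alone. For Slc6a12, Slc6a17 and Slc7a15 untreated stroma read 6.39, 6.60 and 6.55, above the 6.31, 6.46 and 6.40 of untreated day 14 T cells. None of those stromal readings was well above background. Measured in stroma and on neither T cell array were Slc1a2, Slc6a7 and Slc38a3, each of them above background in treated T cells at 24 h. Slc1a3 and Slc36a4 were measured in stroma and in T cells at 72 h. On the 24 h T cell array Slc36a4 was above background in untreated RNA alone and Slc1a3 in treated RNA alone. On the 72 h array Slc38a3 was above background in untreated T cells alone, and Slc6a7 and Slc6a17 in treated T cells alone.

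Above background in some channel, but in both channels of no array, were 5 genes, Slc6a11, Slc6a14, Slc7a9, Slc7a14 and Slc38a8. All of them were so in treated T cells at 24 h, and Slc7a9 also in treated stroma and in treated T cells at 72 h. Another 16 genes were not well above background in any channel. They included the cystine carrier Slc7a11, with 4 probes that read between 5.94 and 6.34 in all 6 channels. That range lies at the floor of the scale, since the lowest log2 level that counted as above background in the 6 channels was between 5.99 and 6.20. The dopamine, noradrenaline and serotonin carriers Slc6a3, Slc6a2 and Slc6a4, the glycine carrier Slc6a5 and the glutamate carriers Slc1a1 and Slc1a7 were in this group too. The Slc6 family was the least often detected, with 9 of 18 genes measured on any array, against 8 of 15 for Slc7, 8 of 10 for Slc38, 5 of 7 for Slc1, 3 of 4 for Slc36, 2 of 2 for Slc3 and 3 of 3 for Slc43.

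**Figure D1:**
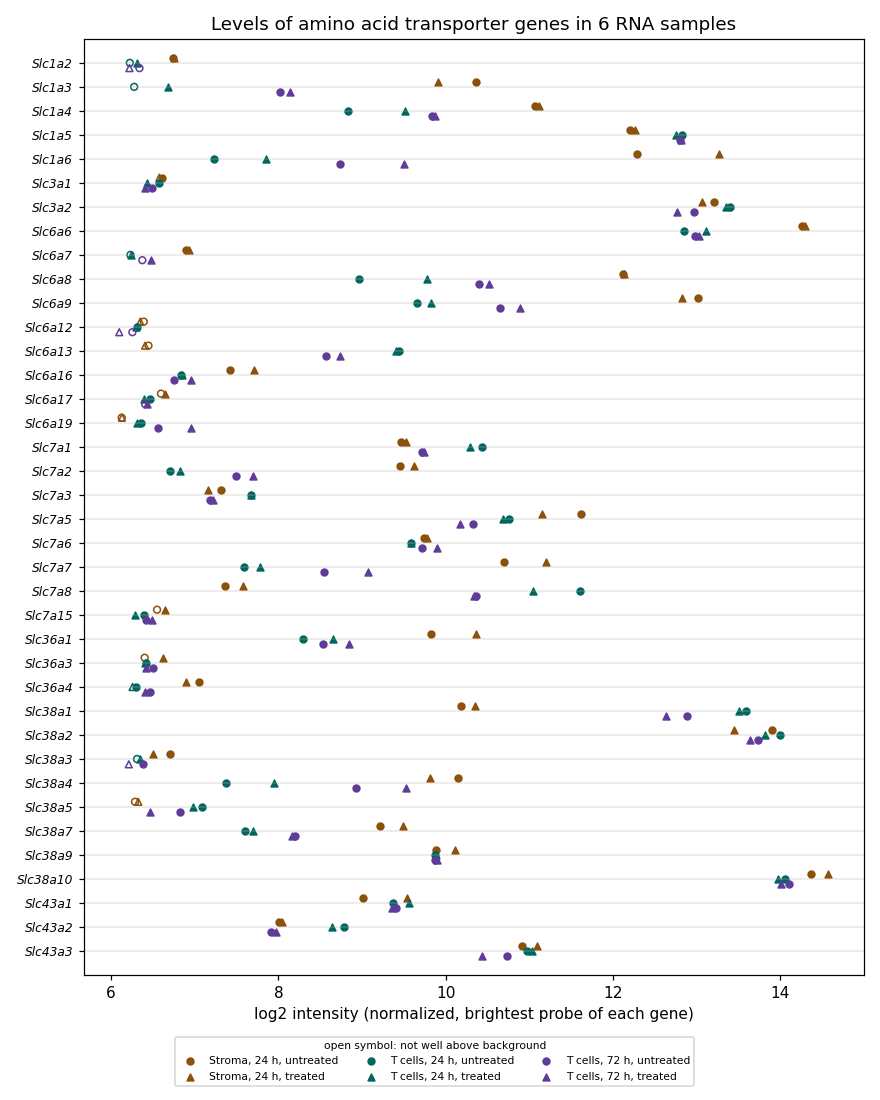
Normalized log2 intensity (x axis) of the brightest probe of each of the 38 genes measured on at least 1 array (y axis), in untreated (circles) and pAsc-treated (triangles) RNA of stroma and of T cells at 24 h and 72 h. Open symbols were not well above background, and values are to be compared along a row only, since probes differ in brightness for reasons other than RNA amount. The Slc1a6, Slc6a8, Slc6a9 and Slc7a7 symbols of stroma lie to the right of those of T cells, and those of Slc38a1 and Slc7a8 to the left.

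With no pAsc, stroma and T lineage cells differed in the level of several carriers. Among 44 member probes above background in untreated stroma and in untreated day 14 T cells, 13 were at least 2-fold higher in stroma, against 22.9% of all probes so compared, and 6 were at least 2-fold lower, against 15.9% of all. Against day 17 T cells, 14 of 47 were higher in stroma (15.1% of all probes) and 5 were lower (9.35% of all). The same stromal sample stands in both counts. These values compare arrays, and no array was repeated.

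Among probes measured in both samples, the largest stromal excess was that of Slc1a6, a glutamate carrier best known from cerebellar Purkinje cells. It read 12.29 in untreated stroma, 7.23 in untreated day 14 T cells and 8.74 in untreated day 17 T cells, so that stroma was 33.4-fold and 11.7-fold higher. Slc6a9, the glycine carrier GlyT1, read 13.02 in stroma, 9.66 at day 14 and 10.65 at day 17, or 10.3-fold and 5.17-fold higher in stroma. Slc7a7, a light chain that exports cationic amino acids, read 10.69 in stroma, 7.59 at day 14 and 8.55 at day 17, or 8.58-fold and 4.42-fold higher. Slc1a3, another glutamate carrier, read 10.37 in stroma and 8.02 at day 17 on its brightest probe. That probe was not well above background in untreated day 14 T cells. By it stroma was at least 17.1-fold above day 14 and 5.10-fold above day 17. A second Slc1a3 probe read 7.07 in stroma and 6.47 at day 17, and by it stroma was at least 1.86-fold and 1.52-fold higher. These 4 genes, Slc1a3 by its brightest probe alone, were at least 4-fold higher in stroma than in both T cell samples.

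The opposite was seen for Slc7a8 and Slc38a1. Slc7a8, a system L light chain (LAT2), read 7.36 in untreated stroma, 11.60 at day 14 and 10.37 at day 17, so that T cells were 19.0-fold and 8.04-fold higher. Slc38a1 (SNAT1), a sodium-coupled carrier of glutamine, had 5 probes, all brighter in T cells. Over these, T cells were 2.09-fold to 10.6-fold higher at day 14 and 1.74-fold to 6.51-fold higher at day 17. Its brightest probe, at the top of both ranges, read 10.19 in stroma, 13.59 at day 14 and 12.89 at day 17. Slc6a13, a carrier of GABA and taurine (GAT2), was not above background in untreated stroma on either probe. In untreated T cells its probes read 9.44 and 9.10 at day 14 and 8.57 and 8.27 at day 17. T cells were thus at least 7.98-fold and 6.26-fold above stroma at day 14 by the first and the second probe, and at least 4.35-fold and 3.51-fold at day 17.

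Between the untreated T cell samples, 4 of 50 member probes were at least 2-fold higher at day 17 than at day 14, against 6.24% of all probes, and 1 was at least 2-fold lower, against 3.75% of all. The higher ones were probes of Slc1a4, Slc1a6, Slc6a8 and Slc38a4, each of which was also brighter in stroma. The lower one was Slc7a8. Slc1a3 was at least 3.35-fold higher at day 17 on its brightest probe and at least 1.22-fold on a second. Both probes were above background at day 17 and not at day 14. Over the same step the stromal marker list, of 20 genes that mark stromal cells, had a median ratio of 1.52 over 35 measured probes, and all 35 lay above 0, among them Postn at 2.50 and the Fbn1 probes at 1.96 and 1.94. The summed level of its 42 probes was 165975 in untreated day 14 T cells, 420966 in untreated day 17 T cells and 772148 in untreated stroma, and of the 20 genes only Dcn was not above background in either untreated T cell sample. Whether RNA of carried-over stroma has a part in these differences was not tested. In bulk RNA, fewer cells of a type and less RNA per cell cannot be told apart. Of 29 T lineage marker probes, all were above background on both T cell arrays and 2 were in untreated stroma.

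No member reached 2-fold with pAsc on any array in the main scaling, by loess with an offset of 50. On the stromal array 0 of 49 measured member probes were at least 2-fold higher, against 0.319% of all measured probes, and 0 were at least 2-fold lower, against 0.0937% of all. In T cells at 24 h the counts were 0 higher and 0 lower of 50, against 0.219% and 0.00782% of all probes. At 72 h they were 0 and 0 of 52, against 0.183% and 0.289%. Counts of 0 lie near these background shares.

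The members' ratios lay close to those of all probes. Their median was 0.04 in stroma (0.01 for all probes), -0.01 in T cells at 24 h (0.01 for all) and 0.02 at 72 h (0.00492 for all). Their SD was 0.27, 0.26 and 0.23, against 0.28, 0.22 and 0.26 for all probes. Repeat spots of the same probe, over all probes spotted repeatedly, had an SD of 0.07 on each array, and different probes of the same member gene had an SD of 0.15, 0.15 and 0.13. At 1.5-fold, 1 member probe was higher in stroma (Slc1a6, against 1.80% of all probes), 4 in T cells at 24 h (2 of Slc1a4, and Slc1a6 and Slc6a8, against 2.50%) and 2 at 72 h (Slc1a6 and the first Slc38a4 probe, against 1.54%). None was 1.5-fold lower on any array, where 2.54%, 0.176% and 1.72% of all probes were. These 1.5-fold counts were added after the data had been seen.

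**Figure D2:**
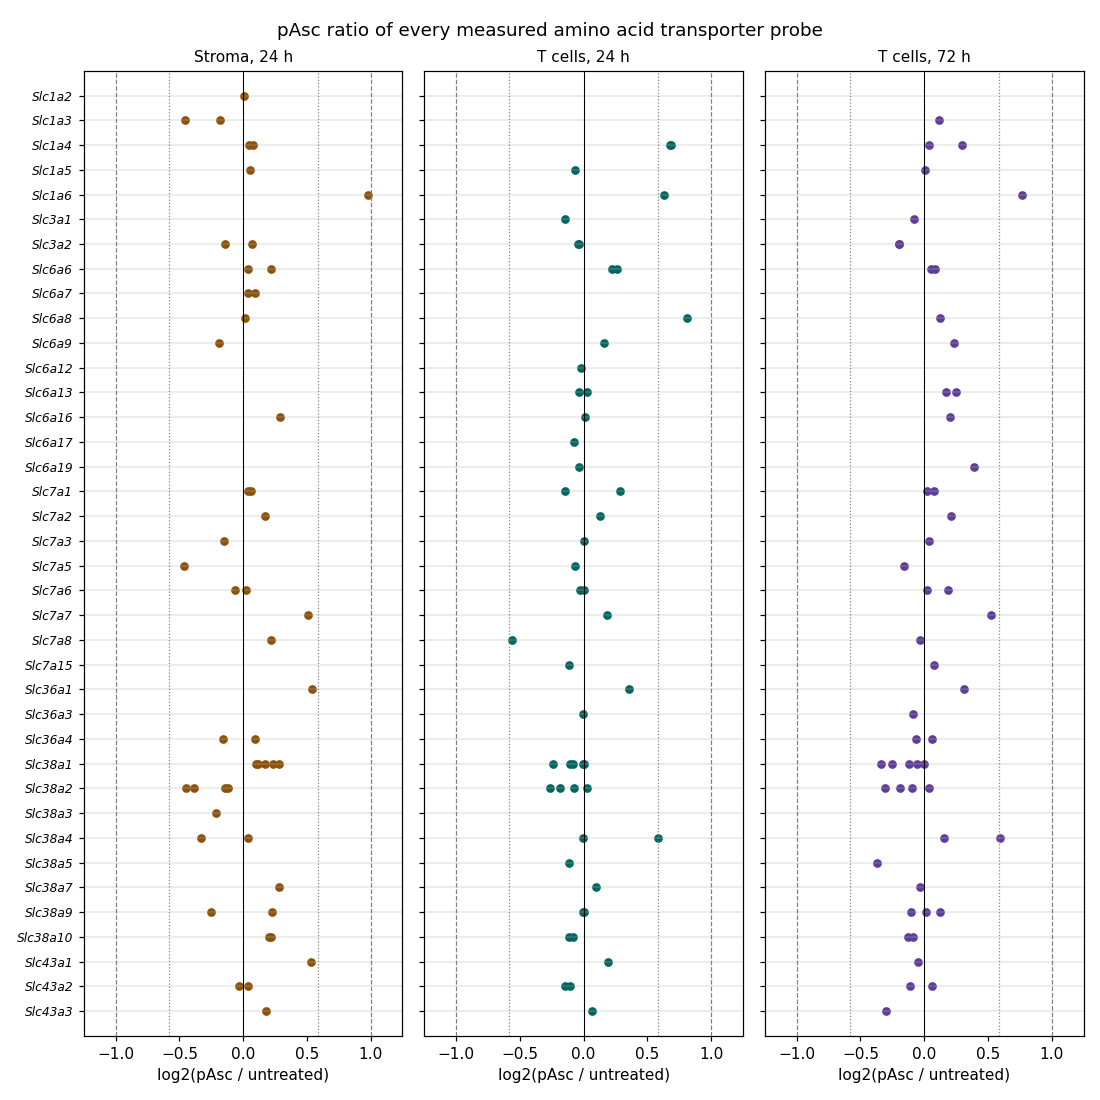
pAsc log2 ratio (x axis) of every measured member probe, by gene (y axis), in stroma at 24 h, T cells at 24 h and T cells at 72 h. Each point is 1 probe on 1 array, dashed lines mark 2-fold and dotted lines 1.5-fold. No point lies beyond a dashed line, and Slc1a6 is the only gene beyond the upper dotted line in all 3 panels.

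Among the glutamate and neutral amino acid carriers of family Slc1, Slc1a6 had the highest ratio of all members in stroma and at 72 h. Its level went from 12.29 to 13.27 in stroma, from 7.23 to 7.85 in T cells at 24 h and from 8.74 to 9.50 at 72 h. The ratios of 0.98, 0.63 and 0.76 correspond to 1.97-fold, 1.54-fold and 1.70-fold, and they stayed above the median of all probes in every scaling tried. Slc1a6 thus read higher with pAsc in each sample, and just under 2-fold in stroma. Its stromal ratio passed 2-fold under plain subtraction (1.01) and under median centring on measured probes (1.40). It also did so under median centring on all probes (1.96), where the median of all measured probes was 0.54.

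Slc1a4 (ASCT1), which carries alanine, serine and cysteine, stood out at 24 h in T cells alone. Its first probe went from 9.67 to 9.75 in stroma, from 7.76 to 8.44 in T cells at 24 h and from 8.59 to 8.89 at 72 h. Its second probe went from 11.07 to 11.11, from 8.83 to 9.51 and from 9.84 to 9.88. The probes gave nearly the same ratio at 24 h, 0.68 and 0.69, or 1.60-fold and 1.61-fold, and 0.30 and 0.04 at 72 h.

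Slc1a5 (ASCT2), the glutamine carrier of many dividing cells, hardly differed with pAsc. Its level went from 12.21 to 12.26 in stroma, from 12.83 to 12.76 in T cells at 24 h and from 12.81 to 12.82 at 72 h. Slc1a3 went from 10.37 to 9.92 in stroma on its brighter probe, a ratio of -0.45, and from 8.02 to 8.14 in T cells at 72 h. On the 24 h T cell array the same probe was above background in treated RNA alone, at 6.68, or at least 1.32-fold higher.

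Of the CD98 complex, the heavy chain Slc3a2 had ratios between -0.20 and 0.07 over both probes and all arrays. Its brighter probe went from 13.21 to 13.07 in stroma, from 13.41 to 13.36 in T cells at 24 h and from 12.97 to 12.77 at 72 h. The light chain Slc7a5 (LAT1) had the lowest ratio of all members in stroma, where it went from 11.62 to 11.16, a ratio of -0.47 or 1.38-fold lower. In T cells Slc7a5 went from 10.76 to 10.69 at 24 h and from 10.33 to 10.17 at 72 h. In stroma its ratio stayed below the median of all probes in every scaling tried, from -0.50 to -0.17, but its T cell ratios turned to the other side of that median, at 0.06 and 0.00405, under median centring.

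Slc7a8 had the lowest ratio of all members in T cells at 24 h. It went from 11.60 to 11.04 there, a ratio of -0.56 or 1.48-fold lower, and stayed below the median of all probes in every scaling tried. At 72 h it went from 10.37 to 10.33, a ratio of -0.03, and in stroma from 7.36 to 7.58, a ratio of 0.22. Under median centring these last 2 ratios changed sides relative to all probes, to 0.14 and -0.15.

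Slc7a7 went from 10.69 to 11.20 in stroma, from 7.59 to 7.78 in T cells at 24 h and from 8.55 to 9.07 at 72 h. Its ratios were 0.51, 0.19 and 0.52, above the median of all probes in every scaling tried. Slc7a6, the other light chain of this transport system, had ratios between -0.07 and 0.19 over both probes and all arrays. The brighter Slc7a6 probe went from 9.75 to 9.77, from 9.58 to 9.58 and from 9.72 to 9.90.

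The cationic amino acid carriers showed ratios from -0.15 to 0.28. Slc7a1 (CAT1), the main arginine carrier of many cells, went from 9.47 to 9.53 in stroma, from 10.44 to 10.29 in T cells at 24 h and from 9.72 to 9.74 at 72 h on its brighter probe. Its dimmer probe, which read between 6.51 and 7.05, had ratios of 0.04, 0.28 and 0.08. Slc7a2 (CAT2) went from 9.45 to 9.62, from 6.70 to 6.82 and from 7.49 to 7.70. Slc7a3 (CAT3) went from 7.31 to 7.16, from 7.67 to 7.67 and from 7.19 to 7.22. None of these ratios reached 1.5-fold. Relative to all probes, Slc7a2 in T cells at 24 h was at 0.66 by the Agilent log ratio and -0.26 under median centring, and the dimmer Slc7a1 probe there at 0.70 by plain subtraction and -0.16 under median centring.

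In the glutamine and neutral amino acid carriers of family Slc38, Slc38a2 (SNAT2), which responds to amino acid supply in many cells, read lower with pAsc on 3 of its 4 probes on every array. Its brightest probe went from 13.90 to 13.45 in stroma, from 14.00 to 13.82 in T cells at 24 h and from 13.74 to 13.64 at 72 h. The next probe went from 11.42 to 11.29, from 10.67 to 10.69 and from 10.47 to 10.51, and is the probe that differed in T cells. The remaining probes had ratios of -0.39 and -0.14 in stroma, -0.08 and -0.27 at 24 h and -0.19 and -0.31 at 72 h. Relative to all probes, the brightest probe turned to 0.08, 0.15 and 0.30 under median centring, and only the dimmest probe kept its side on all 3 arrays in every scaling tried.

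Slc38a1 had ratios from 0.10 to 0.28 over its 5 probes in stroma, from -0.24 to -0.00129 in T cells at 24 h and from -0.34 to 0.000571 at 72 h. Its brightest probe went from 10.19 to 10.36 in stroma, from 13.59 to 13.51 at 24 h and from 12.89 to 12.64 at 72 h. Relative to all probes the brightest probe lay above 0 on both T cell arrays under median centring, at 0.22 and 0.07.

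Slc38a4 (SNAT4) read differently on its probes. The first probe went from 10.14 to 9.81 in stroma, from 7.37 to 7.95 in T cells at 24 h and from 8.93 to 9.52 at 72 h, with ratios of -0.33, 0.58 and 0.60. The second, which spans an intron, went from 7.45 to 7.48, from 6.43 to 6.42 and from 6.96 to 7.11, with ratios of 0.04, -0.01 and 0.16. The gap of 0.59 between them at 24 h was the largest between probes of any member gene on that array. With an offset of 0 in the background correction, the 24 h ratios were 0.73 for the first probe and -0.01 for the second. Relative to all probes, the first ranged from 0.46 to 0.90 there over the scalings tried. The dim second probe ranged from -0.59 under median centring to 0.24 by the Agilent log ratio.

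The other Slc38 genes had smaller ratios. Slc38a9, the lysosomal arginine sensor upstream of mTORC1, went from 9.88 to 10.11 in stroma, from 9.88 to 9.88 in T cells at 24 h and from 9.88 to 9.89 at 72 h on its brightest probe. Its next probe went the other way in stroma, from 8.83 to 8.58. Slc38a7, a lysosomal glutamine carrier, went from 9.21 to 9.49 in stroma, from 7.60 to 7.69 at 24 h and from 8.20 to 8.16 at 72 h. Slc38a10 went from 14.38 to 14.58, from 14.06 to 13.98 and from 14.10 to 14.01 on its brighter probe.

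Slc38a5 (SNAT5) was measured in T cells alone, where it went from 7.09 to 6.97 at 24 h and from 6.83 to 6.46 at 72 h. The last ratio, -0.37, was the lowest of the members at 72 h, and the authors' deposited Agilent log ratio put it at -1.19 on the log2 scale. This was the only member past 2-fold lower in any scaling tried, and the dimness of the probe leaves its size uncertain.

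Of the proton-coupled carriers, Slc36a1 (PAT1), which exports small neutral amino acids from lysosomes, read higher with pAsc on all 3 arrays. Its brighter probe went from 9.82 to 10.36 in stroma, from 8.29 to 8.65 in T cells at 24 h and from 8.53 to 8.84 at 72 h. The ratios of 0.54, 0.36 and 0.31 stayed above the median of all probes in every scaling tried. Its other probe was above background in treated stroma alone. Slc36a4 (PAT4) stayed between 6.89 and 7.05 in stroma and between 6.18 and 6.52 in T cells over both probes.

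The Slc43 genes carry large neutral amino acids (Slc43a1 and Slc43a2) or purine bases (Slc43a3). Slc43a1 (LAT3) went from 9.01 to 9.54 in stroma, a ratio of 0.53, from 9.37 to 9.56 in T cells at 24 h and from 9.41 to 9.36 at 72 h. Slc43a2 (LAT4) went from 8.01 to 8.05, from 8.79 to 8.64 and from 7.91 to 7.97 on its brighter probe. Slc43a3 went from 10.92 to 11.10, from 10.97 to 11.04 and from 10.74 to 10.44, the last a ratio of -0.30.

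In family Slc6 the creatine carrier Slc6a8 had the highest ratio of all members in T cells at 24 h. It went from 8.96 to 9.77 there, a ratio of 0.81 or 1.76-fold, from 12.13 to 12.14 in stroma and from 10.40 to 10.52 at 72 h. Slc6a6, the taurine carrier, went from 14.26 to 14.30 in stroma, from 12.86 to 13.12 in T cells at 24 h and from 12.98 to 13.03 at 72 h on its brighter probe. Slc6a9 went from 13.02 to 12.83, from 9.66 to 9.83 and from 10.65 to 10.89. Slc6a8 thus read higher with pAsc in T cell RNA at 24 h without reaching the 2-fold call, and its ratios in stroma (0.01) and at 72 h (0.13) were small.

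Slc6a13 went from 9.44 to 9.41 at 24 h and from 8.57 to 8.74 at 72 h on its first probe, and its second probe had ratios of 0.02 and 0.25. Slc6a19 (B0AT1), a carrier of neutral amino acids known from gut and kidney, had a ratio of 0.39 at 72 h, where it went from 6.56 to 6.95. Relative to all probes that ratio was 0.77 with an offset of 0, 0.92 by plain subtraction and by the Agilent log ratio, and -0.10 under median centring. In T cells at 24 h it went from 6.35 to 6.31. The remaining measured Slc6 genes, Slc6a7, Slc6a12, Slc6a16 and Slc6a17, read below 8 in every channel.

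The member probes with the higher ratios in T cell RNA were mostly those brighter in stroma. To avoid a shared control, the 24 h ratios were set against stroma over the untreated day 17 T cells, and the 72 h ratios against stroma over the untreated day 14 T cells. Measured probes above background in neither of the untreated samples so compared were left out. These were the probes of Slc6a12 and Slc6a17 at 24 h and the dimmest Slc38a9 probe at 72 h. At 24 h the 13 member probes at least 2-fold brighter in stroma had a median ratio of 0.26, and 12 of them lay above 0. The 28 within 2-fold had a median of -0.04, with 7 above 0, and the 7 at least 2-fold brighter in T cells a median of -0.08, with 1 above 0. All array probes of the same classes had medians of 0.18, 0.00674 and -0.07.

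At 72 h the 14 stroma-bright member probes had a median of 0.18, with 13 above 0. The 29 within 2-fold had a median of -0.06, with 13 above 0, and the 8 brighter in T cells a median of -0.04, with 3 above 0. The medians of all array probes were 0.11, -0.00801 and -0.06. The 4 probes past 1.5-fold at 24 h and the 2 at 72 h were all in the stroma-bright class, and without that class the counts were 0 and 0.

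Stromal markers also read mostly higher with pAsc in T cell RNA. Of the 42 stromal marker probes, 35 were measured in T cells at 24 h and 34 of them lay above 0, with a median of 0.61, and at 72 h 30 of 37 lay above 0, with a median of 0.40. In stroma the median of 39 was 0.00653, with 21 above 0. Their summed level went with pAsc from 772148 to 990981 in stroma, from 165975 to 281238 in T cells at 24 h and from 420966 to 638579 at 72 h. Dcn was the only one of the 20 genes not above background in treated T cells at 24 h, and it was above background in treated T cells at 72 h. The 29 T lineage marker probes had a median of -0.09 at 24 h, with 7 above 0, and -0.20 at 72 h, with 6 above 0. Relative to all probes these medians turned to 0.07 and 0.06 under median centring. The 6 measured myeloid and mast cell marker probes had a median of -0.08 at 24 h, with 3 above 0. At 72 h they were split, with 3 above 0, 3 at least 2-fold lower (0.289% of all probes) and a median of -0.61. The B lineage marker probes had a median of 0.16 over 6 probes at 24 h, with 6 above 0. At 72 h their median was -0.21 over 5 probes, with 1 above 0 and 2 at least 2-fold lower. The part of RNA from other cells in the T cell ratios of Slc1a4, Slc1a6, Slc6a8, Slc7a7, Slc36a1 and Slc38a4 was not tested. In stroma itself the ratios were 0.98 for Slc1a6, 0.54 for Slc36a1, 0.51 for Slc7a7, 0.08 and 0.04 for the Slc1a4 probes, 0.01 for Slc6a8 and -0.33 for the first Slc38a4 probe.

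**Figure D3:**
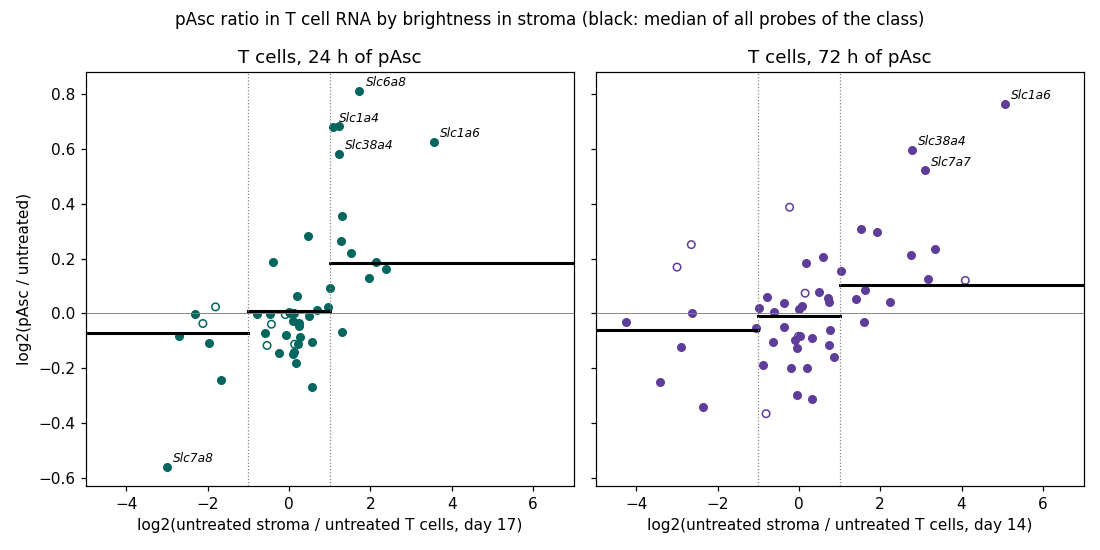
pAsc log2 ratio in T cells (y axis) of measured member probes against the log2 ratio of untreated stroma over the untreated T cells of the other T cell array (x axis), at 24 h (left) and 72 h (right). Probes above background in neither of those untreated samples are not shown. Open points were above background in only 1 of the untreated samples, dotted lines mark 2-fold, and black bars give the median of all array probes of each class. Points past 1.5-fold on the y axis, named with the others past a log2 ratio of 0.5, all lie to the right of the right-hand dotted line.

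Other genes of amino acid metabolism were set beside the carriers. The list of the amino acid response holds targets and partners of the kinase Gcn2 and of Atf4. In stroma it had a median of -0.21 over 34 probes, with 9 above 0. Of the 34, 2 were at least 2-fold lower, against 0.0937% of all measured probes, and 0 were at least 2-fold higher, against 0.319% of all. The lower ones were Trib3, a pseudokinase that Atf4 induces, at -2.15 (4.44-fold lower) on its first probe, and Chac1, an enzyme that breaks down glutathione, at -1.45 (2.74-fold lower). The second Trib3 probe read -0.999, Asns, the asparagine synthetase, -0.95, and Atf5 -0.88. These probes stayed lower than the median of all probes in every scaling tried, whereas the list median turned to 0.05 relative to all probes under median centring. Other genes of the list read higher with pAsc in stroma, such as Bcat1 at 0.46 and 0.28, Aldh18a1 at 0.45 and Pycr1 at 0.34. Atf4 itself read -0.09. No member probe was 1.5-fold lower in stroma.

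In T cells at 24 h the amino acid response list had a median of 0.00102 over 36 probes. Of these, 1 was at least 2-fold higher (0.219% of all probes), Atf3 at 1.20, and 0 were lower (0.00782% of all). At 72 h its median was -0.05 over 36 probes. Of these, 1 was at least 2-fold lower (0.289% of all probes), Trib3 at -1.22 on its first probe, and 0 were higher (0.183% of all). The second Trib3 probe read -0.53. Phgdh, the first enzyme of serine synthesis, read -0.82, -0.77 and -0.71 on its 3 probes at 72 h. The lists of amino acid sensing by mTORC1 (38, 43 and 40 measured probes), of other amino acid carriers (12, 18 and 17) and of glutamine and glutathione use (11, 14 and 15) had 0 probes past 2-fold in either direction on every array. Counts of 0 lie near the shares of all probes. The medians of these lists lay between -0.08 and 0.15.

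**Figure D4:**
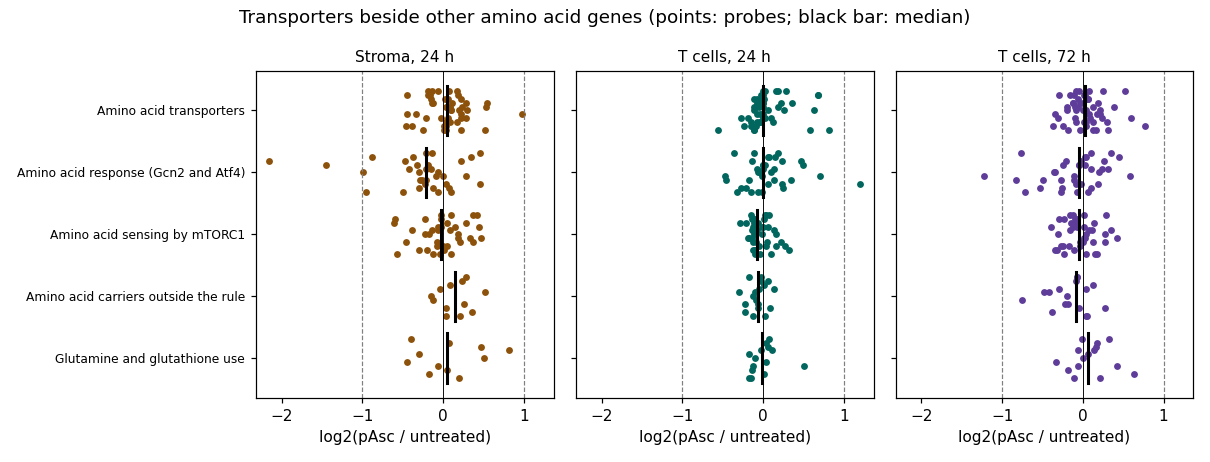
pAsc log2 ratio (x axis) of each measured probe of the amino acid transporters and of 4 other lists of amino acid genes (y axis), on each of the 3 arrays. Black bars are medians, dashed lines mark 2-fold, and the vertical spread within a list carries no value. The points beyond a dashed line all belong to the amino acid response list, with Trib3 and Chac1 to the left in stroma, Atf3 to the right in T cells at 24 h and Trib3 to the left at 72 h.

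Promoters were searched for 6 short motifs in RefSeq sequence of GRCm38.p6, from 250 bases before to 50 after each start, on both strands. Of the 59 genes, 41 matched, with 62 promoters, against 32851 promoters of all genes. The amino acid response motif TGATGNAA was in 4 member promoters (3.97% of all promoters), and its stricter form TGATGCAA in the same number (0.895% of all), from Slc1a4, Slc7a7 and Slc7a11. The E-box CACGTG was in 9 (7.15% of all). TGACNNNGC, the core of the antioxidant response element, was in 11 (12.4%), CCAAT in 19 (37.4%), and ACGTG or GCGTG, the hypoxia response core, in 36 (43.8%). CACGTG also holds ACGTG, and TGATGCAA is a case of TGATGNAA. A match is a description of the sequence and not a binding site.

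The 5 measured stromal member probes whose promoters hold CACGTG were those of Slc1a6 (0.98), Slc36a1 (0.54), Slc43a1 (0.53), Slc6a16 (0.29) and Slc38a7 (0.28), all above 0. They include the 3 highest ratios of the members in stroma. The 28 member probes with a promoter lacking it had a median of 0.02, with 15 above 0. Over all genes on the stromal array the 1608 probes with CACGTG had a median of 0.0075 and the 11610 without it 0.01, which lie close together. In T cells 6 such member probes had a median of 0.14 at 24 h, with 5 above 0, and 0.09 at 72 h, with 3 above 0. The Slc6a16 value in stroma turned to -0.05 relative to all probes under median centring. This grouping was made after the values had been seen, and the other motifs were not set against the ratios.

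The 250 bases before the start are shown for 4 of these genes and for Slc7a11, whose promoter holds TGATGCAA on each strand while its probes were not above background. Capitals mark complete matches of CACGTG, or of TGATGNAA in Slc7a11.
Slc1a6 (chr10:78780246-78780495, plus strand): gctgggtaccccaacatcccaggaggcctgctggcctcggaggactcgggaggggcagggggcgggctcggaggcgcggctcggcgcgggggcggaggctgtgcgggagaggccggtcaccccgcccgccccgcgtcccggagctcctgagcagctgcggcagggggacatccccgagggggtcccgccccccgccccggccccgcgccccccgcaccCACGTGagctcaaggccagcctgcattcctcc
Slc36a1 (chr11:55204090-55204339, plus strand): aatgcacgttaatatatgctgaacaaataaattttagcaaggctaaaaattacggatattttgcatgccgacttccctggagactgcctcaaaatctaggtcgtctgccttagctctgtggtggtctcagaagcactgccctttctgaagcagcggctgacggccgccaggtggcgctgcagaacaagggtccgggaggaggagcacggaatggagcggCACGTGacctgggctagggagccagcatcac
Slc43a1 (chr2:84840073-84840322, plus strand): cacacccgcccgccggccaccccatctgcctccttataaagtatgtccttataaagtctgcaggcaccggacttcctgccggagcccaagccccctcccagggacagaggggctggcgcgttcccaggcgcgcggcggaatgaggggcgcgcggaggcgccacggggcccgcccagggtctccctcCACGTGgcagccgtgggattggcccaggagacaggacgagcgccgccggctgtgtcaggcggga
Slc38a7 (chr8:95853492-95853741, minus strand): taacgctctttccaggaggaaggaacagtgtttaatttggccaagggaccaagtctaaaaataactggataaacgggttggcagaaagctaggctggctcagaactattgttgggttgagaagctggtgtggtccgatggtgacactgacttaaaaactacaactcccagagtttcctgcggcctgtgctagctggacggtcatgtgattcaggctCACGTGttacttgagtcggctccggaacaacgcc
Slc7a11 (chr3:50443614-50443863, minus strand): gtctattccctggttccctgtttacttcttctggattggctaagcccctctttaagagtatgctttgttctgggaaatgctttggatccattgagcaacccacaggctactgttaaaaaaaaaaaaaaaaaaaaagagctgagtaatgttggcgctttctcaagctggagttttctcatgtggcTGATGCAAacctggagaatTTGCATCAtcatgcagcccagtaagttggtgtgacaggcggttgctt
Slc36a1 holds a second CACGTG that runs past the start and is not capitalised.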

How the data were processed

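Each of the 3 two-colour Agilent arrays held untreated RNA in Cy3 and pAsc-treated RNA in Cy5, from 1 sample per channel. The authors deposited spot intensity values as mean signals and median local backgrounds, which per the file headers come from Agilent Feature Extraction 10.5.1.1 and are not normalized. A deposited log10 ratio of Cy5 over Cy3, per the file headers background-subtracted and dye-normalized, was used as an alternative after conversion to log2. Flags for spots well above background were also taken from the deposited files. All arrays shared 1 slide and 1 scan.

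Background correction used normexp (offset 50) and within-array normalization used loess (span 0.3), both from limma 3.58.1 under R 4.3.3, and gave control and outlier spots a weight of 0. Levels of single channels were set on 1 scale by Aquantile. Spots of a probe were averaged, and a probe was measured where a share of at least 0.5 of its spots was well above background in both channels. The offset shrinks ratios of dim probes. Bounds for a probe above background in 1 channel set it against its dim signal or, where that is higher, against the floor of that channel, and are open to dye bias. Arrays give no counting depth, and their number limits the precision, since no comparison has a replicate. From 117 to 130 spots an array carried an outlier flag, none of them a member's, and 0 were saturated. Counting was done under Python 3.11.15 (pandas 2.3.3, numpy 2.4.6).

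The genes described were those past 2-fold or, where fewer than 6 were, the 4 with the highest and the 4 with the lowest ratio on an array, those at least 4-fold apart between stroma and both T cell samples, and a list of 16 carriers; the amino acid response genes, and the Slc genes outside these rules, were picked from their lists with their values in view. The members and lists were chosen with earlier results of these data known. Alternatives were an offset of 0, plain subtraction, median centring in place of loess, the Agilent log ratio, 1 probe a gene, probes above background in 1 channel and, for levels, the Agilent processed signal and quantile scaling. The normalization was tested on simulated data.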

Additional observations from a re-analysis of the deposited data

Results flagged for a closer look

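Slc7a8 had ratios of opposite sign at 24 h in stroma (0.22) and in T cells (-0.56), a difference of 0.78, each ratio at least 3 times the SD of repeat spots. The difference was not tested, and the stromal ratio turned to -0.15 relative to all probes under median centring.

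The first Slc38a4 probe read lower with pAsc in stroma (-0.33) and higher on the T cell arrays (0.58 after 24 h and 0.60 after 72 h), differences of -0.91 and -0.93 for stroma minus T cells. These differences were not tested. All 3 signs held in every scaling tried. The second Slc38a4 probe had ratios of 0.04, -0.01 and 0.16, and on each array it changed sides relative to all probes between scalings.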

How the results depend on the processing

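Median centring on all probes put the median of all measured probes at 0.54, 0.36 and 0.48 (stroma, T cells at 24 h and at 72 h). The members' medians were then 0.51, 0.41 and 0.54, the counts 2-fold higher 6, 2 and 3, and those 1.5-fold higher 23, 12 and 22. Centring on measured probes gave a stromal median of -0.0397, with 1 probe 2-fold higher (Slc1a6) and 5 probes 1.5-fold higher there. It gave 4, 8 and 6 probes 1.5-fold lower on the 3 arrays. In stroma, plain subtraction gave 1 probe 2-fold higher (Slc1a6 again), 3 probes 1.5-fold higher and 1 lower. There an offset of 0 gave 2 probes 1.5-fold higher, and the Agilent log ratio gave 3 probes 1.5-fold higher and 2 lower. On each T cell array an offset of 0, plain subtraction and the Agilent log ratio gave 1 probe 1.5-fold lower, and at 72 h the Agilent log ratio gave 4 probes 1.5-fold higher and 1 probe 2-fold lower. Without the stroma-bright probes the 1.5-fold counts were 0 at 24 h and 0 at 72 h. With 1 probe a gene, 2 were lower in stroma than in day 14 T cells. For day 17 over day 14, an offset of 0 gave 9 higher and 2 lower, and the Agilent signal 8 and 5. The cause of these moves was not tested. Of the measured members, 29 of 49, 28 of 50 and 32 of 52 kept their side of the median of all probes in all 5 scalings. No paired analysis was possible because each group has 1 array, which also left no replicate to leave out. A probe near background has only a bound or a ratio shrunk by the offset.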
